A study of Mus musculus with 4 samples.

Results

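The clustered protocadherins are cell-surface adhesion proteins encoded by the Pcdha, Pcdhb and Pcdhg genes, which lie in consecutive arrays on mouse chromosome 18. Genes were taken by symbol, as every entry of the gene table that begins with Pcdha, with Pcdhg or with Pcdhb followed by a digit. This gave 58 of 56884 genes. They comprised 12 alpha genes (Pcdha1 to Pcdha12), 22 beta genes (Pcdhb1 to Pcdhb22), 19 gamma genes of the A and B types (Pcdhga and Pcdhgb) and 5 C-type genes. The C-type genes were Pcdhac1 and Pcdhac2 of the alpha array and Pcdhgc3, Pcdhgc4 and Pcdhgc5 of the gamma array. The rule uses gene symbols and no measured value, although the family was picked for study with earlier results of these data known.

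As background, each neuron switches on a small, largely random set of alpha, beta and gamma promoters, and the C-type genes follow cell type more than chance. The proteins bind their own kind across membranes, which lets a neurite recognise and avoid itself and supports the survival of interneurons. Promoter choice depends on DNA methylation and on looping by CTCF and cohesin, and DNMT1 is the enzyme that copies DNA methylation after replication.

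Single-nucleus RNA sequencing was performed on medial cortex from mouse embryos at E16.5. Control animals carried Sst-Cre and a tdTomato reporter, and Dnmt1 KO animals additionally carried floxed Dnmt1 alleles (genotype Sst-Cre/tdTomato/Dnmt1 loxP2). Each genotype had 2 libraries, so every genotype comparison is 2 against 2 samples. Cre under the Sst promoter acts in postmitotic somatostatin interneurons, so most nuclei of a Dnmt1 KO library do not belong to the lineage in which the deletion takes place, and recombined nuclei were not picked out here.

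Barcodes with 1500 to 60000 transcripts were retained, which left 4905 to 12064 nuclei per library and 29656 in all, with 0 barcode names shared between libraries. Control replicate 2 alone came from batch 2 and was deeper, with a median of 21140 transcripts per nucleus where the other libraries had 12274 to 12401. Batch 2 holds no Dnmt1 KO library, so a genotype value within it could not be had. Dnmt1 itself stood at 76.1 and 46.1 counts per 1000000 transcripts (CPM) in the Sst+/Gad2+ nuclei of the Dnmt1 KO libraries and at 81.2 and 66.5 CPM in those of the controls. Its log2 fold change there was -0.35 ± 0.33 (SE), with an adjusted p of 1.00 (edgeR quasi-likelihood test, Benjamini-Hochberg). A gene-level count need not show the loss of the floxed exons, so this does not check the labels.

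Nuclei were clustered on genes other than the clustered protocadherins, and 26 of 30 clusters could be named from marker genes. The excitatory-like class joins the nuclei of upper and deep cortical layers. MGE-interneuron-like nuclei carry markers of interneurons born in the medial ganglionic eminence, the source of the Sst lineage, and IPC-like nuclei carry markers of intermediate progenitors. Sst+/Gad2+ nuclei held at least 1 transcript of each of these genes, in whatever cluster, and the Dnmt1 KO libraries held 16 and 136 of them and the control libraries 40 and 27. Every list of 4 values below gives Dnmt1 KO replicate 1, Dnmt1 KO replicate 2, control replicate 1 and control replicate 2, in this order.

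The arrays lie on the plus strand of chromosome 18 (GRCm39, GENCODE vM39). The alpha array spans positions 37063237 to 37320716, the beta array 37397991 to 37657532 and the gamma array 37794846 to 37975014. Beta genes are single coding exons, with 2.59 to 8.70 kb of exon of their own. Alpha and gamma genes each have a large exon of their own that is spliced to constant exons at the end of the array, so their introns run through the genes downstream of them. In nuclear RNA much of the signal is intronic, and how reads in these shared introns were assigned is not given in the sources used here. Where each shared stretch is given to the overlapping gene with the lowest Ensembl identifier, the largest share, 365.6 kb, falls to Gm38666, a gene outside the 58, and 308 kb falls to 8 members, namely Pcdha1, Pcdha3, Pcdha10, Pcdhb9, Pcdhgb2, Pcdhga9, Pcdhga10 and Pcdhgc4. This assignment is a construct from the annotation, and the files do not show which gene such reads were given to. These 8 genes held 79.7% of the 58 genes' transcripts, and the other 50 held 20.3%. Family levels are therefore given for members without shared introns unless all members are named, and levels are compared between genes only among those.

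The 58 genes together took a small and even share of the transcripts, 979, 1124, 1038 and 1026 CPM over all retained nuclei. In the alpha array Pcdha10 stood at 216, 318, 276 and 277 CPM and Pcdha3 at 51.8, 78.2, 72.6 and 75.4 CPM. In the gamma array Pcdhga10 stood at 215, 213, 196 and 189 CPM and Pcdhgb2 at 182, 188, 171 and 173 CPM. All of these genes are among the 8 that hold shared introns under this construct, and whether their values count RNA of the named gene or of the array was not tested. Pcdha1 and Pcdhb9, also among the 8, were low, at 3.20 and 0.794 CPM on average. Without them, the mean level over the 4 libraries ran from 0.0187 CPM for Pcdhb1 to 13.7 ± 1.76 CPM (SD, n = 4) for Pcdhgc3, with a median of 2.99 CPM. Pcdha4 had 14 transcripts in all and Pcdhb1 had 9, too few to compare.

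**Figure D1:**
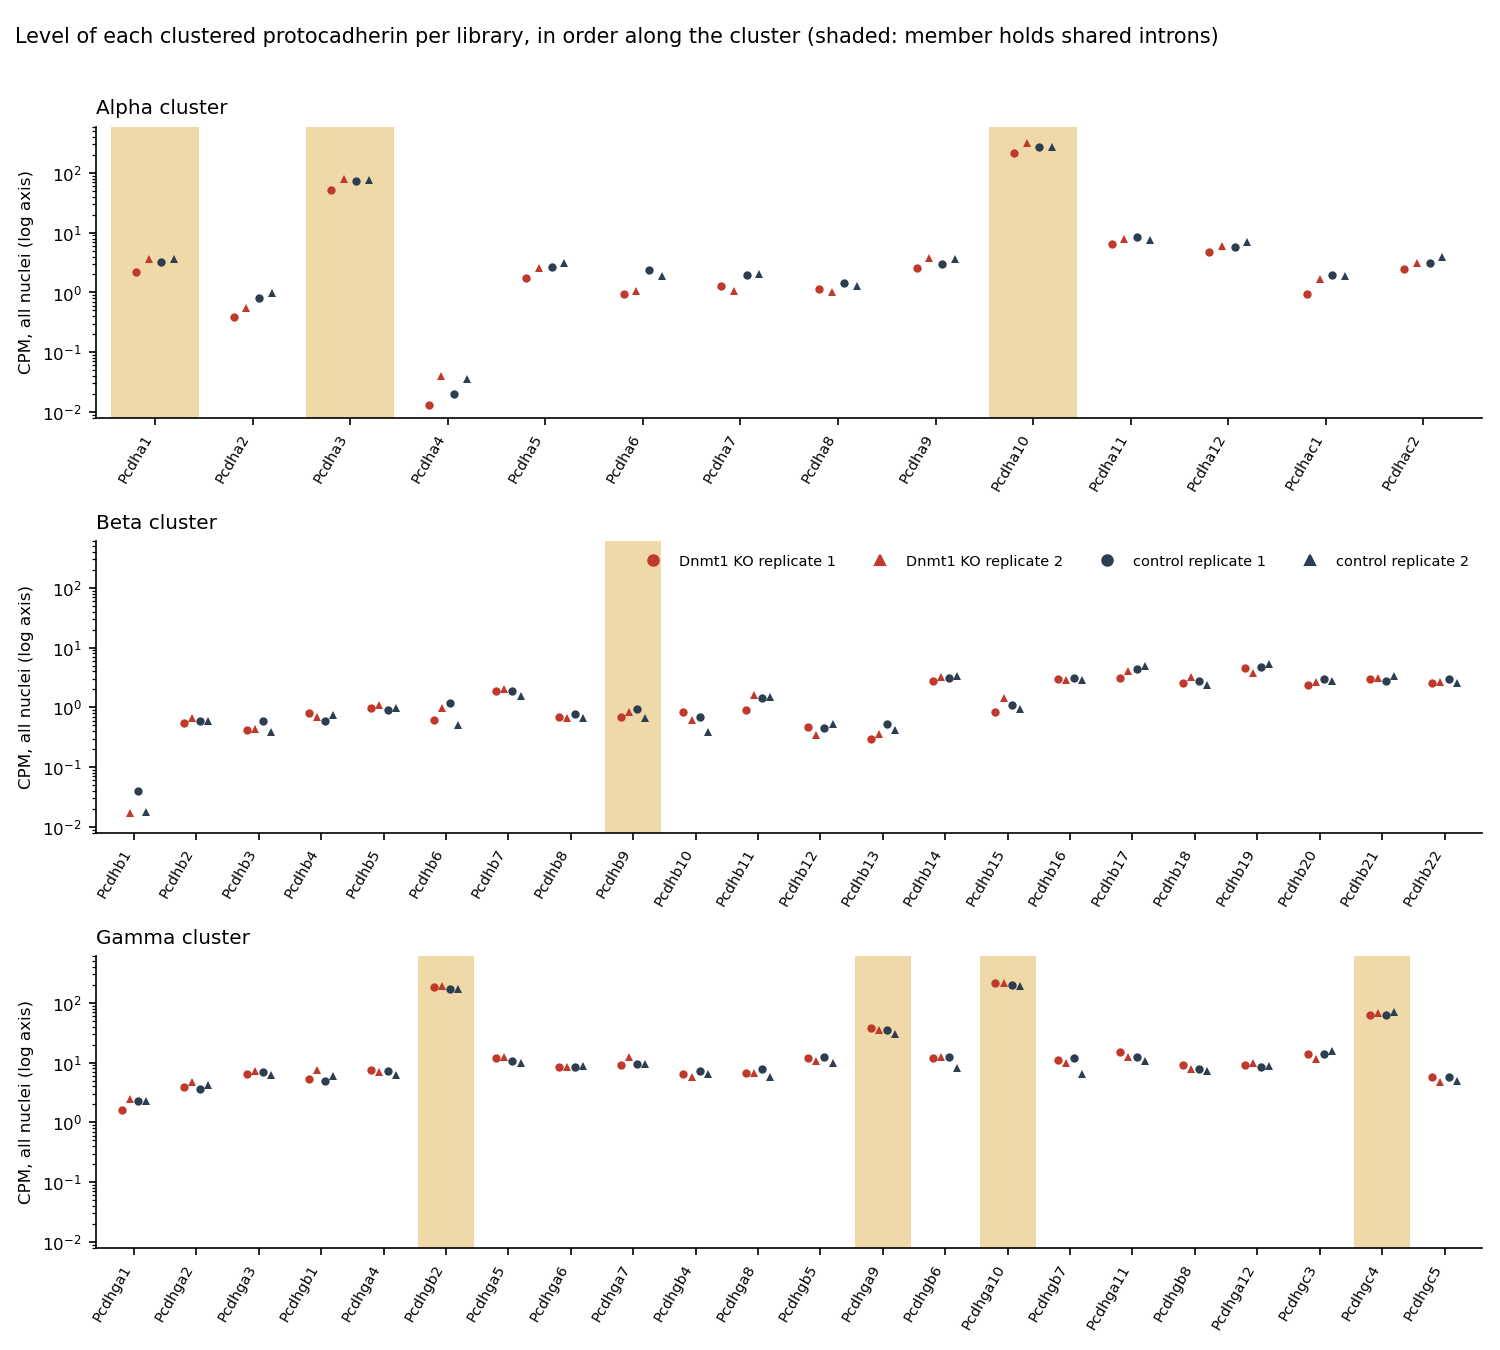
Level of each clustered protocadherin over all retained nuclei, in CPM on a log axis, ordered along each array. Points are the 4 libraries, shading marks the 8 members that hold shared introns, and a value of 0 (Pcdhb1 in Dnmt1 KO replicate 1) is not drawn. Unshaded genes run from a mean of 0.0187 CPM for Pcdhb1 to 13.7 CPM for Pcdhgc3.

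In the alpha and beta arrays, members without shared introns near the downstream end had the higher levels per kilobase of own exon. Pcdha12, the last alpha gene, had 2.40 CPM per kb and Pcdha11 1.63 CPM per kb, against 0.271 CPM per kb for Pcdha2. In the beta array Pcdhb17 had 0.879 CPM per kb, Pcdhb20 0.757, Pcdhb21 0.716 and Pcdhb19 0.643. Levels per kb were 0.106 to 0.525 for Pcdhb2 to Pcdhb13. Spearman's rho between order along the array and CPM per kb, without Pcdha4 and Pcdhb1, was 0.79 over 8 alpha genes, 0.73 over 20 beta genes and 0.34 over 16 gamma genes. These are descriptions across neighbouring genes of the same libraries, without a test. In the gamma array the most abundant of these genes was Pcdhga11, at 4.76 CPM per kb, and Pcdhga5 had 4.35 CPM per kb.

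The families differed in where they were expressed. Alpha genes were highest in neurons, with a summed level of 1.56, 2.23, 2.05 and 3.41 CPM in radial-glia-like nuclei for the 9 genes without shared introns. It was 7.77 ± 1.42 CPM (SD, n = 4) in IPC-like, 22.4 ± 2.61 CPM in upper-layer-like, 35.5 ± 3.63 CPM in deep-layer-like and 37.2 ± 2.03 CPM in MGE-interneuron-like nuclei. No library of IPC-like nuclei reached the lowest upper-layer-like library, and none of radial-glia-like nuclei reached the lowest IPC-like library. The deep-layer-like and MGE-interneuron-like levels overlapped between libraries, and so did the MGE-interneuron-like and CGE-interneuron-like levels (41.0 ± 4.21 CPM). Beta genes had a narrower range, with 12.2 ± 4.30 CPM in radial-glia-like, 25.8 ± 2.52 in IPC-like, 35.1 ± 3.24 in upper-layer-like, 43.2 ± 2.53 in deep-layer-like and 51.4 ± 4.06 CPM in MGE-interneuron-like nuclei. CGE-interneuron-like nuclei, at 41.2 ± 9.02 CPM of beta transcripts, stood below the MGE-interneuron-like mean, whereas for alpha they stood above it, and the libraries overlapped in both families.

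The gamma A and B genes had their highest level, in CPM, in IPC-like nuclei among the named classes. The 16 genes without shared introns summed to 235, 239, 211 and 210 CPM in IPC-like nuclei, and every one of these values lay above every library of the other classes with at least 10 nuclei per library. The next highest means were 168 ± 20.6 CPM in mural-like, 142 ± 7.13 CPM in hippocampal-like and 138 ± 9.81 CPM in upper-layer-like nuclei. Radial-glia-like nuclei had 114 ± 10.5 CPM, MGE-interneuron-like nuclei 124 ± 5.47 CPM and deep-layer-like nuclei 112 ± 11.3 CPM, and these 3 classes overlapped. Of these 16 genes 14 were higher in every IPC-like library than in any radial-glia-like library, and Pcdhga1 and Pcdhgb7 overlapped. No share of all genes is set beside this count, so it describes the levels and is no result about the gamma genes. Pcdhga11 stood at 25.4, 25.8, 24.0 and 16.3 CPM in IPC-like and 14.1, 12.8, 12.8 and 10.4 CPM in radial-glia-like nuclei. Pcdhga10 stood at 353, 405, 332 and 343 CPM in IPC-like and at 189, 210, 189 and 181 CPM in radial-glia-like nuclei, without overlap. No fit was made for IPC-like nuclei against another class, and these levels are over plain library totals, with no other scaling shown. The IPC-like class is cluster 4 alone, which is non-cycling. Cluster 16, with 7 intermediate progenitor markers detected and cell-cycle genes in the lead, was left unnamed. Radial-glia-like nuclei include the cycling clusters 5 and 25, and the part of cycling in these differences was not tested.

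The C-type sum stayed within a narrow band, from 18.5 ± 2.26 CPM in IPC-like to 28.5 ± 5.06 CPM in CGE-interneuron-like nuclei among neural classes, but its members parted. Pcdhac1 had 1.23, 2.02, 2.14 and 2.14 CPM in excitatory-like nuclei and 0.0782, 0.124, 0.489 and 0 CPM in radial-glia-like nuclei. The 0 in control replicate 2 allows a level of up to 0.320 CPM, counting error only. Pcdhac2 had 2.74, 3.47, 3.28 and 4.50 CPM in excitatory-like and 1.10, 1.18, 1.17 and 1.81 CPM in radial-glia-like nuclei. Pcdhgc5, by contrast, had 5.24, 4.71, 5.04 and 4.84 CPM in excitatory-like and 4.77, 5.34, 6.94 and 4.79 CPM in radial-glia-like nuclei, which overlapped.

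**Figure D2:**
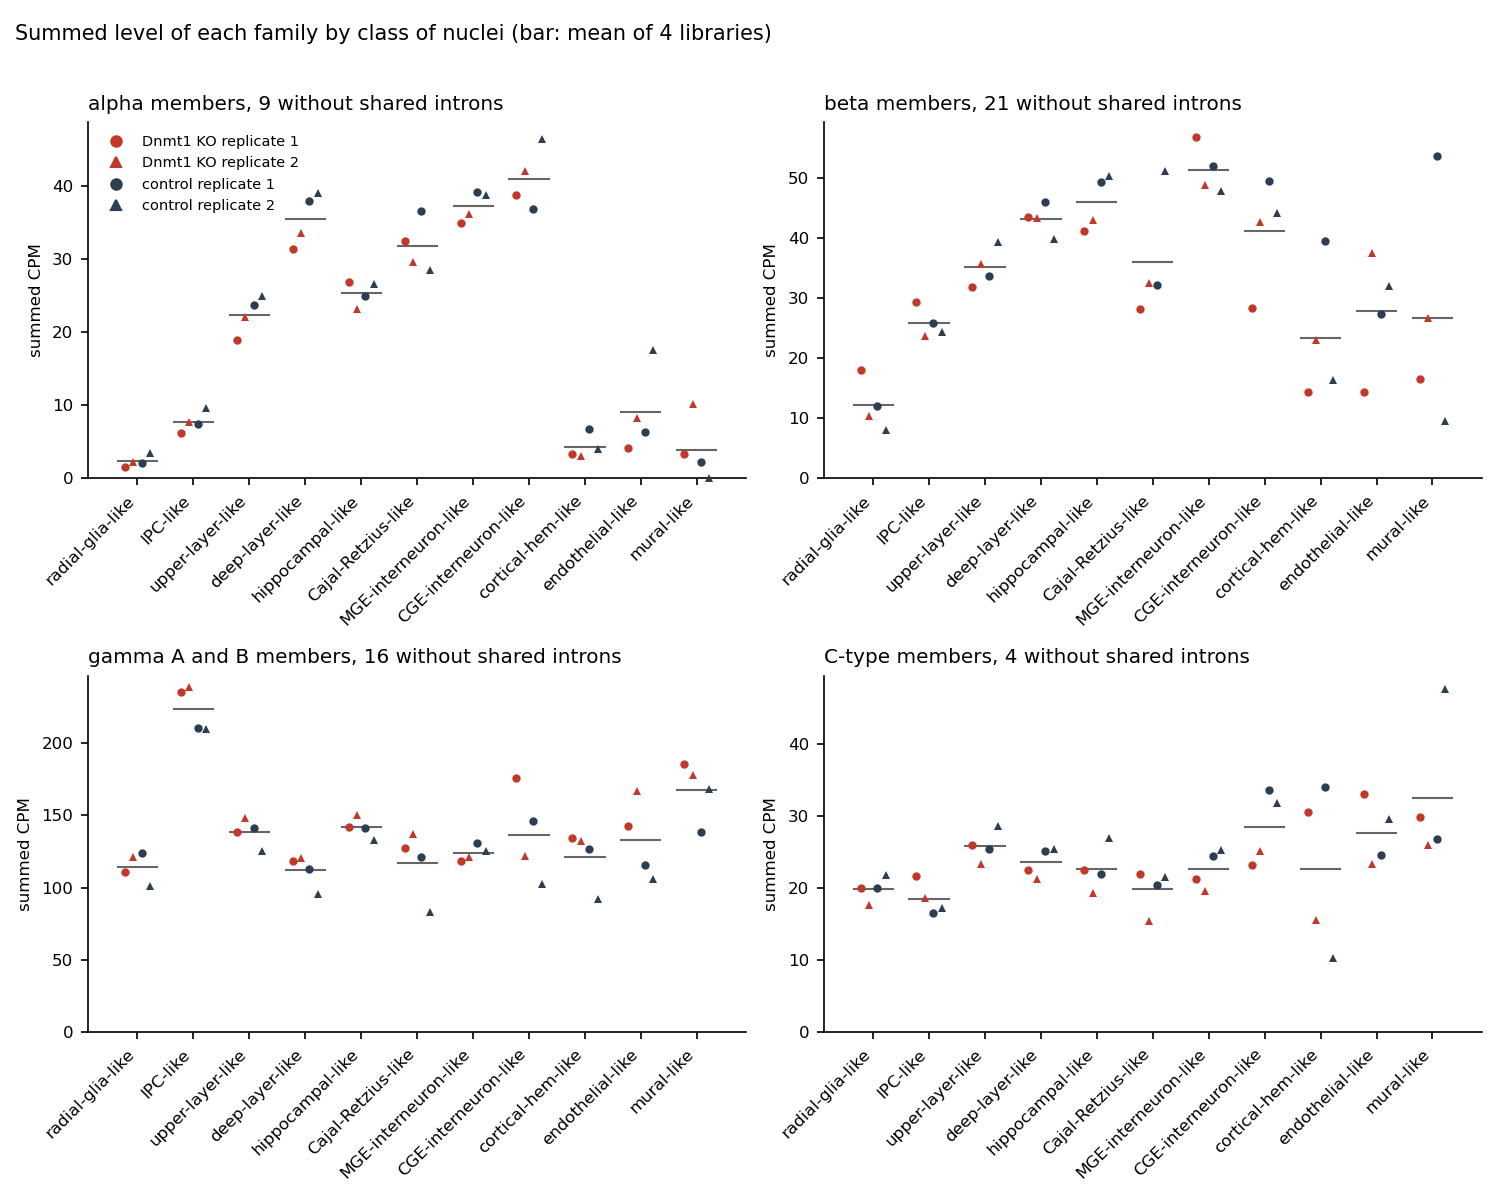
Summed level of each family in CPM, for members without shared introns, in the classes with at least 10 nuclei in every library. Points are libraries and bars their mean. Mean alpha sums run from 2.32 CPM in radial-glia-like to 41.0 CPM in CGE-interneuron-like nuclei, and gamma A and B sums peak at 224 CPM in IPC-like nuclei.

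Progenitors were compared with neurons by testing summed counts per library and class, with library as a block. Against excitatory-like nuclei, 52 of 54 members tested were lower in radial-glia-like nuclei and 0 were higher, where over all 16720 genes tested 35.4% were lower and 37.9% higher. All 11 alpha genes tested were lower (median log2 fold change -4.18), as were all 19 beta genes (median -2.16). Of the gamma A and B genes 18 of 19 were lower (median -0.63), and of the C-type genes 4 of 5, all but Pcdhgc5. The median over all genes tested was 0.02. Of the members tested 9 had fewer than 10 transcripts in radial-glia-like nuclei (4 alpha, 4 beta and Pcdhac1) and passed the filter on low counts through excitatory-like nuclei. Others with more transcripts, such as Pcdha12 with 18, also passed it only through excitatory-like nuclei. The counts therefore describe the families and are no support for a difference. With at least 10 such transcripts, 7 of 7 alpha, 15 of 15 beta, 18 of 19 gamma A and B and 3 of 4 C-type genes were lower. This limit is set on pooled transcripts and keeps members that passed the filter only through excitatory-like nuclei, so it is no support either.

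These fits scale libraries by TMM, and the choice bears on the gamma genes. With plain library totals, an alternative chosen after seeing the data, the median of all genes moves by 0.47 on the log2 scale, to 0.50, and the genes called higher and lower become 58.3% and 21.4% in place of 37.9% and 35.4%. With plain totals 40 of 54 members were lower, among them 11 of 11 alpha, 18 of 19 beta, 9 of 19 gamma and 2 of 5 C-type genes (Pcdhac1 and Pcdhac2), and 0 were higher. The gamma median was then -0.16 and Pcdhgc5 reversed to 0.13. The gamma median lay below the median of all genes on both scales. A change of scale moves all genes by about the same amount, so the gap between these medians could not change and the other scale adds no support.

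The largest folds belonged to alpha genes. Pcdha12 had 0.0782, 0.497, 0.293 and 0.639 CPM in radial-glia-like nuclei and 6.69, 6.96, 6.61 and 8.17 CPM in excitatory-like nuclei. Its log2 fold change was -4.71 ± 0.27 (SE), with an adjusted p of 1.22e-05 (edgeR). It rests on 18 transcripts over all radial-glia-like nuclei, and the gene passed the filter on low counts through excitatory-like nuclei. Pcdha8 and Pcdha7 were as low, but with 3 and 4 transcripts over all radial-glia-like nuclei. Taken as a ratio of pooled counts, Pcdha8 stood at 4.64% of its excitatory-like level (95% exact interval 0.951% to 13.7%) and Pcdha7 at 4.49% (1.22% to 11.6%), and these intervals cover counting error only. Their fitted log2 fold changes, -4.82 and -4.79, became -5.84 for Pcdha8 without Dnmt1 KO replicate 1 and -5.43 for Pcdha7 without Dnmt1 KO replicate 2. Among C-type genes Pcdhac1 had 8 transcripts in radial-glia-like nuclei and stood at 8.41% of its excitatory-like level (3.61% to 16.7%), and its fitted log2 fold change of -3.94 became -4.93 without control replicate 1. The log2 fold change of Pcdhac2 was -1.89 ± 0.14, with an adjusted p of 4.20e-05 (edgeR). For Pcdhgc3 and Pcdhgc4 it was -0.63 ± 0.08 and -0.57 ± 0.05, with adjusted p of 3.88e-04 and 9.53e-05.

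MGE-interneuron-like nuclei, a class that includes the Sst lineage beside other interneurons, were compared with excitatory-like nuclei in the same way. They numbered 269, 1039, 583 and 369, against 16, 136, 40 and 27 Sst+/Gad2+ nuclei in any cluster. Of 56 members tested 6 were higher and 1 was lower, against 17.4% higher and 18.4% lower of all 15773 genes tested. The 6 were the alpha genes Pcdha1, Pcdha3, Pcdha6 and Pcdha8 and the beta genes Pcdhb10 and Pcdhb14. All 11 alpha genes tested had a log2 fold change above 0 (median 0.48), as had 18 of 21 beta genes (median 0.42), where the median over all genes was 0.01. The gamma A and B genes had a median of -0.07, with 0 of 19 called. Without Dnmt1 KO replicate 2 the count was 4 higher and 0 lower, and 4 higher and 0 lower also with nuclei picked by marker transcripts in place of clusters. For these settings the share of all genes called is not given. With plain library totals 9 members were higher (5 alpha and 4 beta genes) and 0 lower, against 19.9% and 17.0% of all genes, and the call of Pcdhgc3 was lost.

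Pcdha1 had 7.96, 9.57, 5.96 and 8.74 CPM in MGE-interneuron-like and 2.77, 4.20, 3.71 and 3.93 CPM in excitatory-like nuclei, without overlap. Its log2 fold change was 1.08 ± 0.15 (SE), with an adjusted p of 7.73e-04 (edgeR). Pcdha3 stood at 166, 149, 133 and 150 CPM against 62.7, 91.3, 79.9 and 79.7 CPM, which differed by 0.90 ± 0.11 on the log2 scale with an adjusted p of 5.31e-04 (edgeR). Both are holders of shared introns under the construct above, and the part of other alpha genes' RNA in their values was not tested. Pcdhb10, a single-exon gene, was low in both classes, at 1.71, 1.49, 1.39 and 0.652 CPM against 0.812, 0.715, 0.705 and 0.406 CPM. Within each library it was higher in MGE-interneuron-like nuclei, by 0.93 ± 0.25 on the log2 scale and at an adjusted p of 0.0207 (edgeR). The lower gene was the C-type Pcdhgc3, at 9.38, 9.57, 13 and 14.2 CPM against 15, 11.9, 14.8 and 15.6 CPM, for a difference of -0.33 ± 0.10 on the log2 scale and an adjusted p of 0.0339 (edgeR). The call of Pcdhb10 was lost without Dnmt1 KO replicate 1, Dnmt1 KO replicate 2 or control replicate 1, and that of Pcdhgc3 without Dnmt1 KO replicate 2 or control replicate 1. Pcdhac1, Pcdhac2, Pcdhgc4 and Pcdhgc5 did not pass, with log2 fold changes of 0.06 ± 0.19, 0.10 ± 0.17, -0.07 ± 0.06 and -0.04 ± 0.13.

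Cajal-Retzius cells, the early-born Reln-expressing neurons of the marginal zone, were represented by 89, 165, 55 and 48 nuclei. Against excitatory-like nuclei 0 of 55 members tested were higher and 4 were lower, where 16.4% of all genes were higher and 17.6% lower. The 4 were Pcdhgc3, Pcdhga7, Pcdhgc4 and Pcdhgb2. Pcdhgc3 had 11.6, 5.03, 12.4 and 9.30 CPM against 15, 11.9, 14.8 and 15.6 CPM in excitatory-like nuclei, a difference of -0.84 ± 0.20 with an adjusted p of 0.0109 (edgeR). Pcdhgc4 had 56.8, 57.6, 40.9 and 48.8 CPM against 63.6, 68.6, 59.6 and 70.9 CPM, a log2 fold change of -0.54 ± 0.10 with an adjusted p of 3.39e-03. Pcdhga7 differed by -0.84 ± 0.25 with an adjusted p of 0.0332, from 6.11, 10.6, 2.92 and 4.07 CPM against 8.54, 11.8, 10.0 and 9.20 CPM. Pcdhac1 (-0.13 ± 0.40), Pcdhac2 (0.11 ± 0.27) and Pcdhgc5 (-0.45 ± 0.27) did not pass. The count was 2 without Dnmt1 KO replicate 2 and 2 without control replicate 1, with no share of all genes set beside it. The call of Pcdhgc3 was lost without Dnmt1 KO replicate 2, and that of Pcdhga7 without Dnmt1 KO replicate 1 or either control replicate. With plain library totals, where the median of all genes shifted by 0.18, 1 member was higher and 2 were lower, against 22.1% and 12.2% of all genes.

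Within excitatory neurons, upper-layer-like nuclei were set against deep-layer-like nuclei. Of 56 members tested 5 were higher and 23 lower, against 24.4% and 25.6% of all 16020 genes tested. All 11 alpha genes tested were lower in upper-layer-like nuclei (median log2 fold change -0.94), 10 of 21 beta genes were lower (median -0.46), 5 of 19 gamma A and B genes were higher (median 0.20), and Pcdhac1 and Pcdhac2 were lower. With plain library totals the median of all genes moved by 0.16, the genes called were 40.01% higher and 19.8% lower, and 16 members were higher and 15 lower, with all 11 alpha genes again lower and 13 gamma genes higher. With nuclei picked by marker transcripts in place of clusters, however, 1 member was higher and 0 were lower, and without Dnmt1 KO replicate 2 the counts were 3 higher and 15 lower. The share of all genes called under these settings is not given, so a change particular to the members cannot be read from these counts.

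Pcdha5 had 1.18, 1.72, 2.16 and 2.52 CPM in upper-layer-like and 3.57, 4.17, 3.73 and 4.85 CPM in deep-layer-like nuclei, without overlap. Its log2 fold change was -1.26 ± 0.15 (SE) with an adjusted p of 8.73e-04 (edgeR). Pcdha2 and Pcdha1 differed by -1.22 ± 0.21 and -1.18 ± 0.14, with edgeR adjusted p of 3.85e-03 and 9.10e-04. Pcdha2 was low in upper-layer-like nuclei, at 0.225, 0.407, 0.680 and 0.637 CPM. It passed the filter on low counts only with deep-layer-like nuclei, where it is high, so its value is no support for a difference. The higher genes with the largest folds were Pcdhga10 (0.28 ± 0.04), Pcdhgb2 (0.28 ± 0.04) and Pcdhga9 (0.28 ± 0.06), all holders of shared introns, with adjusted p of 1.50e-03, 2.19e-03 and 7.14e-03 (edgeR). Pcdhac1 differed by -0.77 ± 0.16 and Pcdhac2 by -0.49 ± 0.16, with adjusted p of 7.37e-03 and 0.0455. Under the marker gates these 2 C-type genes reversed, to 0.27 and 0.14, and the call of Pcdhac2 was lost without either Dnmt1 KO replicate or without control replicate 2.

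The upper-layer-like class was not uniform. Its cluster 7, whose leading genes include Unc5d and Sstr2, a gene of the intermediate progenitor markers used here, had an alpha sum of 9.13, 14.1, 12.2 and 14.7 CPM for members without shared introns and a gamma A and B sum of 192, 204, 187 and 164 CPM. Its cluster 8, led by Inhba, had 23.6, 29.7, 36.8 and 36.3 CPM of alpha and 140, 126, 118 and 107 CPM of gamma A and B transcripts. The clusters did not overlap in either sum. Cluster 8 overlapped the deep-layer-like class, at 31.4, 33.5, 37.9 and 39.0 CPM of alpha, but was below it within each library. Cluster 8 held 43 nuclei in Dnmt1 KO replicate 1 and 311 to 653 in the other libraries. The deep-layer-like class was uneven as well, since its cluster 13, led by Il1rapl2 and Nr4a2, held 3, 652, 197 and 13 nuclei, and the part of this make-up in the comparison of layers was not tested.

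**Figure D3:**
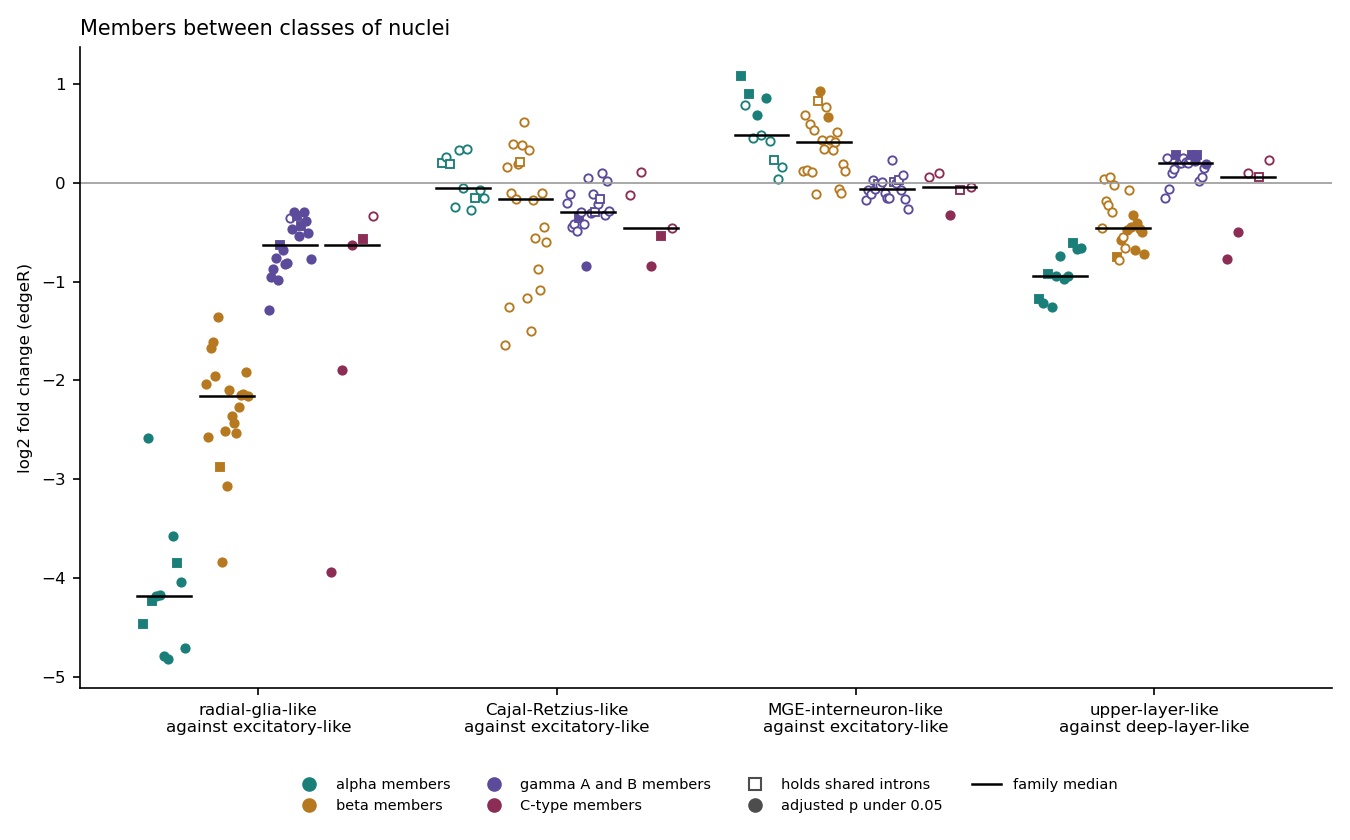
Log2 fold changes of the members tested (edgeR) in the 4 comparisons of classes, by family, with the bar at the family median. Filled points passed an adjusted p of 0.05 and squares hold shared introns. Alpha genes have a median of -4.18 in radial-glia-like nuclei, 0.48 in MGE-interneuron-like nuclei and -0.94 in upper-layer-like nuclei.

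Genes that act on the promoters of these arrays and genes that act with their proteins were counted beside them. The radial-glia-like class holds the cycling clusters 5 and 25, of 1627 and 242 nuclei, beside the non-cycling cluster 3 of 1807 nuclei, with Top2a, Mki67, Mcm3 and Pcna detected as markers in the cycling clusters, and the part of cycling in the values below was not tested. Of 21 regulators (CTCF, cohesin subunits and loaders, Smchd1, Setdb1 and Trim28, DNA methyltransferases, Tet enzymes and others) 17 were higher and 4 lower in radial-glia-like than in excitatory-like nuclei, where 37.9% of all genes were higher and 35.4% lower (58.3% and 21.4% with plain totals). Uhrf1, which guides DNMT1 to newly replicated DNA, had 41.3, 40.8, 56.01 and 53.5 CPM against 0.868, 0.985, 1.63 and 1.08 CPM, and the cohesin subunits Rad21 and Stag2 had log2 fold changes of 1.37 ± 0.07 and 0.94 ± 0.05. In MGE-interneuron-like nuclei 9 of the 21 were higher and 0 lower, against 17.4% and 18.4% of all genes, with Dnmt3a, a de novo DNA methyltransferase, at 63.4, 55.7, 65.5 and 72.4 CPM against 20.4, 36.97, 29.99 and 32.2 CPM. Tet2, which oxidises methylated cytosine, differed by 0.89 ± 0.05 and the cohesin subunit Stag1 by 0.52 ± 0.05, with edgeR adjusted p of 9.34e-06 and 1.90e-04.

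Of the 16 partners and effectors, 15 were tested in radial-glia-like nuclei, with 3 higher and 10 lower, among them Wasf1 and Abi2 of the WAVE actin complex (-1.76 ± 0.07 and -0.83 ± 0.05) and the kinase Ptk2 (-1.33 ± 0.06). In MGE-interneuron-like nuclei 3 were higher and 5 lower, with Nlgn1, a synaptic adhesion protein, at 1269, 1416, 1141 and 1570 CPM against 6574, 5079, 5268 and 6138 CPM. In upper-layer-like nuclei 10 regulators were higher and 2 lower, and 4 partners higher and 7 lower. In Cajal-Retzius-like nuclei the counts were 3 and 5, and 1 and 5. Of 11 non-clustered protocadherins, 5 were higher and 5 lower in radial-glia-like, 4 and 4 in MGE-interneuron-like, 2 and 7 in Cajal-Retzius-like and 3 and 5 in upper-layer-like nuclei. Over all genes tested the shares higher and lower were, in the same order of comparisons, 37.9% and 35.4%, 17.4% and 18.4%, 16.4% and 17.6%, and 24.4% and 25.6%.

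Nearly every nucleus held a transcript of some member. The share was 99.4% in excitatory-like nuclei (median depth 15341.5 transcripts), 96.3% in radial-glia-like nuclei (11554), and 45.5% in 77 microglia-like nuclei (7143), a class outside the neural lineage. After each nucleus was thinned to 1500 transcripts, the shares were 76.2%, 55.8% and 16.9%, against 80.0% in MGE-interneuron-like and 78.2% in IPC-like nuclei. The mean number of distinct members per thinned nucleus was 1.37 in excitatory-like, 0.84 in radial-glia-like, 1.48 in IPC-like and 1.52 in MGE-interneuron-like nuclei.

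Whether transcripts of one nucleus tend to come from the same gene was measured by the same-gene pair ratio. It is the share of transcript pairs within a nucleus that belong to the same gene, divided by that share for pairs drawn from all nuclei of the class and library, so that 1 means no clustering of a gene within nuclei. Beta genes stood apart, with 2.69, 2.47, 2.73 and 2.41 in excitatory-like nuclei for the 21 genes without shared introns, and 2.14, 3.02, 2.57 and 1.96 in MGE-interneuron-like nuclei. The gamma A and B genes had 1.40 ± 0.028 and 1.43 ± 0.085 (SD, n = 4), the alpha genes 1.23 ± 0.07 and 1.14 ± 0.25, and the C-type genes 1.24 ± 0.06 and 1.14 ± 0.46. In each of the 4 libraries, and in both classes, the beta value was the highest of the 4 families, and the genotypes overlapped for beta genes in both classes.

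Over all 58 genes the alpha ratio was 0.99 in excitatory-like nuclei and that of gamma A and B 1.08, where the holders of shared introns had 93.6% of the alpha transcripts and 76.1% of the gamma ones. The beta value was 2.58 when pairs were drawn within each cluster. The 11 non-clustered protocadherins, which lie in other parts of the genome, had 1.18 ± 0.01 in excitatory-like and 1.61 ± 0.14 in MGE-interneuron-like nuclei, so a ratio above 1 is not particular to the arrays.

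In counts, 1157 excitatory-like nuclei held exactly 2 beta transcripts, and in 303 of them, or 26.2%, both came from the same gene, where 7.78% would share a gene in the pooled nuclei. In MGE-interneuron-like nuclei it was 65 of 240, or 27.1%, against 7.41%. For gamma A and B genes it was 294 of 2420 excitatory-like nuclei, or 12.1%, against 6.87%. A nucleus held at most 8 transcripts of a single beta gene. An RNA molecule primed more than once would be counted as a pair from the same gene, and its part in these ratios was not tested.

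**Figure D4:**
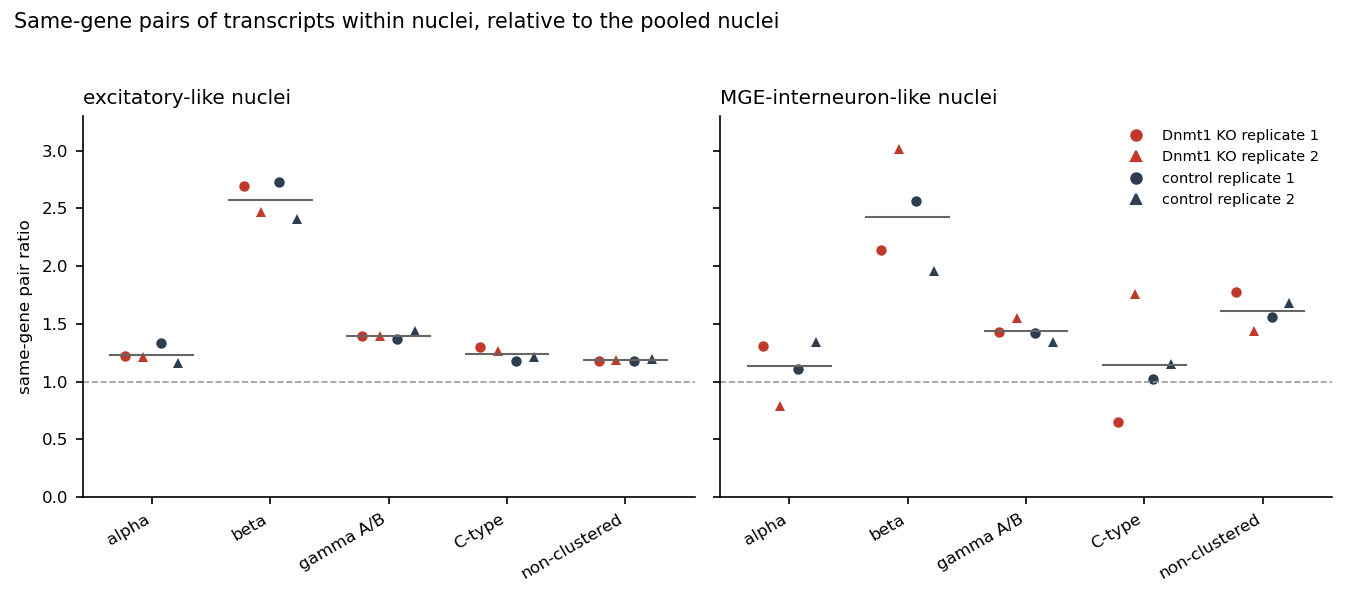
Same-gene pair ratio per library in excitatory-like and MGE-interneuron-like nuclei, for members without shared introns of each family and for 11 non-clustered protocadherins. Bars are means of 4 libraries and the dashed line marks a ratio of 1. Beta genes average 2.58 in excitatory-like and 2.42 in MGE-interneuron-like nuclei.

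The genotypes were compared in 7 populations, and no clustered protocadherin passed the adjusted threshold in any of them with edgeR. Over all retained nuclei 0 of 56 members tested passed, as did 0% of the 21516 genes tested, and 3 members had an unadjusted p under 0.05 against 7.49% of all genes. These were Pcdha6, Pcdha7 and Pcdha2. In Sst+/Gad2+ nuclei, the population nearest to the recombined cells, only 7 members passed the filter on low counts. They were Pcdhga6 and the holders of shared introns Pcdha3, Pcdha10, Pcdhgb2, Pcdhga9, Pcdhga10 and Pcdhgc4. Whether the holders' values count RNA of the named gene or of the array was not tested. Pcdhga6, at 4.23 and 6.05 CPM in Dnmt1 KO libraries, passed through the controls, at 15.8 and 14.4 CPM. Of the 7 members 0 had an unadjusted p under 0.05, against 2.95% of 7219 genes. In MGE-interneuron-like nuclei it was 5 of 49 members against 5.72% of 12934 genes. In the other populations it was 0 of 32 against 6.98% in radial-glia-like nuclei, 0 of 31 against 4.59% in IPC-like nuclei, 2 of 55 against 4.01% in upper-layer-like nuclei and 3 of 56 against 5.78% in deep-layer-like nuclei, with 0% of all genes past the adjusted threshold in each. DESeq2 called 0 members in every population, but its share of all genes called is not given, so this adds no support. With 2 libraries per genotype a change of moderate size can go uncalled.

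Over all retained nuclei Pcdha6 stood at 0.929 and 1.06 CPM in the Dnmt1 KO libraries and at 2.41 and 1.85 CPM in the controls. Its log2 fold change was -1.11 ± 0.24 (SE), with an unadjusted p of 6.77e-03 and an adjusted p of 0.649 (edgeR). Pcdha7 stood at 1.30 and 1.06 CPM against 1.99 and 2.01 CPM (-0.79 ± 0.22 on the log2 scale), and Pcdha2 at 0.385 and 0.556 CPM against 0.798 and 0.976 CPM (-0.91 ± 0.32). The groups of these 3 genes did not overlap, and none passed after adjustment. All 11 alpha genes tested and all 5 C-type genes were below 0 here (medians -0.29 and -0.25), 14 of 21 beta genes were below 0 (median -0.10), and 14 of 19 gamma genes were above 0 (median 0.13), where 10383 of all 21516 genes were above 0. In sums over all nuclei, fewer nuclei of a type and less RNA per nucleus cannot be told apart. Radial-glia-like nuclei, which have the lowest alpha level, made up 18.7%, 11.2%, 11.1% and 9.95% of the libraries. Other shares were as uneven, with striatal-like nuclei at 0.0887%, 0.986%, 6.77% and 0.204%, hippocampal-like nuclei at 9.45%, 7.53%, 3.16% and 5.42%, and the unnamed cluster 6 at 1, 1227, 316 and 1 nuclei, and their part in these values was not tested.

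Pcdha6 and Pcdha7 also had an unadjusted p under 0.05 within excitatory classes. In deep-layer-like nuclei Pcdha6 had 1.45 and 1.49 CPM against 3.45 and 2.57 CPM (-0.99 ± 0.26), and Pcdha7 had 2.01 and 1.30 CPM against 2.64 and 2.96 CPM (-0.77 ± 0.30, and -0.43 without Dnmt1 KO replicate 2). The gamma gene Pcdhga5 had 10.5 and 11.2 CPM against 8.39 and 8.19 CPM there (0.42 ± 0.13), and the adjusted p of all 3 was 0.794 (edgeR). In upper-layer-like nuclei Pcdha7 had 1.18 and 0.971 CPM against 1.96 and 1.78 CPM (-0.77 ± 0.28). Pcdhga11 had 16.1 and 13.3 CPM against 10.97 and 10.8 CPM (0.47 ± 0.15), and the adjusted p of both was 0.897 (edgeR). The uneven cluster 13 (3, 652, 197 and 13 nuclei) belongs to the deep-layer-like class, and its part in these values was not tested. These nuclei come from the same libraries as the sums over all nuclei and are not independent of them, and excitatory neurons are not of the Sst lineage.

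In MGE-interneuron-like nuclei the gene with the smallest p was Pcdhb7, at 5.68 and 4.39 CPM in Dnmt1 KO libraries, against 2.08 and 0.522 CPM in control libraries. The values rest on 20, 56, 15 and 4 transcripts. Its log2 fold change was 1.96 ± 0.55, with an unadjusted p of 8.48e-03 and an adjusted p of 0.818 (edgeR). The fold change was 3.25 without control replicate 1 and 1.26 without control replicate 2. Pcdhb7 passed the filter on low counts through the Dnmt1 KO libraries, where it is high, so these values are no support for a difference. It was called when no filter was applied, but no share of all genes is set beside that call. Pcdha6 had 1.99 and 1.65 CPM against 5.41 and 3.13 CPM (-1.23 ± 0.42, and -0.77 without control replicate 1), and Pcdhb19 had 3.98 and 3.53 CPM against 7.07 and 6.001 CPM (-0.77 ± 0.28). Pcdha10 and the C-type Pcdhgc3 were the other members with an unadjusted p under 0.05. Pcdha10 had 415 and 424 CPM against 369 and 355 CPM, and Pcdhgc3 had 9.38 and 9.57 CPM against 13 and 14.2 CPM. Pcdha10 holds shared introns under the construct above. Alpha members without shared introns went the other way in these nuclei, with a mean sum of 35.5 against 38.9 CPM (log2 ratio -0.13). With the holders included, the log2 ratio was 0.17 to 0.18 leaving out each library. No test was made of these sums.

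**Figure D5:**
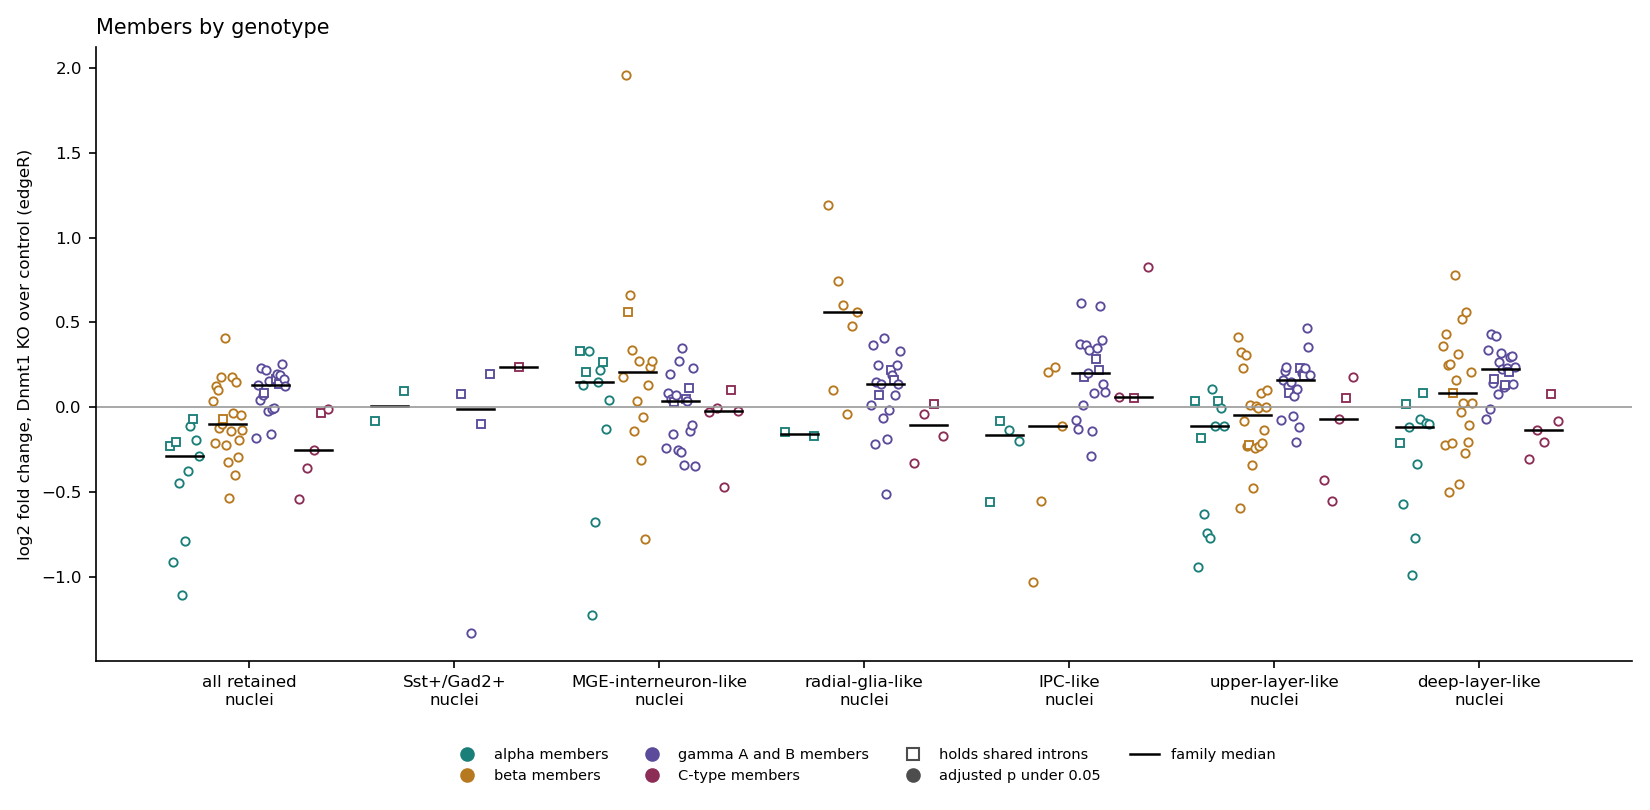
Log2 fold changes of the members tested, Dnmt1 KO over control (edgeR), by family in 7 populations of nuclei, with the bar at the family median. Squares hold shared introns, and no point is filled because none passed an adjusted p of 0.05. The highest value is that of Pcdhb7 in MGE-interneuron-like nuclei, 1.96.

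Summed levels were set side by side by genotype. Over all retained nuclei the 12 alpha genes summed to 289 and 424 CPM in the Dnmt1 KO libraries and to 379 and 384 CPM in the controls, so the genotypes overlapped and Dnmt1 KO replicate 1 was the lowest library. The beta genes summed to 34.0 and 37.1 CPM against 38.6 and 37.4 CPM, the gamma A and B genes to 570 and 574 CPM against 534 and 508 CPM, and the C-type genes to 85.6 and 89.0 CPM against 86.8 and 96.1 CPM. As log2 ratios of the group means these were -0.10, -0.10, 0.13 and -0.07. These sums over all members consist mainly of the holders of shared introns, except for beta. For members without shared introns the ratios were -0.34 for alpha (19.2 and 23.8 CPM against 26.9 and 27.5 CPM), -0.10 for beta, 0.13 for gamma A and B and -0.21 for C-type genes. Leaving out each library in turn, the ratio ran from -0.50 to -0.19 for alpha, from -0.16 to -0.037 for beta, from 0.034 (without control replicate 2) to 0.23 (without control replicate 1) for gamma A and B and from -0.29 to -0.14 for C-type genes. In each of the 4 families the genotypes did not overlap on this count, but the families share the same libraries. Groups of 2 libraries can fail to overlap without a genotype difference, and no share of all genes is set beside this. The nearest libraries were 36.2 CPM (Dnmt1 KO replicate 2) and 36.7 CPM (control replicate 2) for beta genes. For gamma A and B genes they were 135.5 CPM (Dnmt1 KO replicate 1) and 133.2 CPM (control replicate 1). No test was made of these sums. In Sst+/Gad2+ nuclei all members together gave 1070 and 1164 CPM against 1176 and 1101 CPM, which overlapped.

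Because Cre acts in the Sst lineage, the genotype difference in MGE-interneuron-like nuclei was tested against that in excitatory-like nuclei of the same libraries. The MGE-interneuron-like class holds other interneurons as well, so a change confined to recombined nuclei would be diluted in it. In this interaction 0 of 56 members passed the adjusted threshold with edgeR and 0 with DESeq2, as did 0% of 16931 genes with edgeR. The share of all genes with DESeq2 is not given. With no filter on low counts Pcdhb7 passed, at an adjusted p of 0.0411 (edgeR), where the range over its other alternatives was 0.646 to 1.00. No share of all genes passing without the filter is set beside this. An unadjusted p under 0.05 was found for 3 members against 2.29% of all genes. These were Pcdhb7 (interaction of 1.72 ± 0.56 on the log2 scale, 2.96 without control replicate 1 and 1.03 without control replicate 2), Pcdhga12 (-0.58 ± 0.21) and Pcdhga11 (-0.47 ± 0.18). In the regulators, the partners and the non-clustered protocadherins, 0 genes passed the adjusted threshold by genotype in any of the 7 populations or in the interaction with edgeR.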

How the data were processed

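Nuclei from 4 libraries (2 Dnmt1 KO, 2 control, E16.5) were profiled with a split-pool kit, and the authors deposited raw counts of transcripts per gene and barcode, with a gene table and per-barcode metadata. The submitters' processing notes name mm39, R 4.4.1 and Seurat 5.0.1.9001. How reads in overlapping genes were assigned is not given in the sources used here.

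The retained barcodes had 1500 to 60000 transcripts, and a ceiling of 10% mitochondrial content removed 0 of them. Retained libraries held 75338095 to 172783347 transcripts. Nuclei were clustered with scanpy 1.11.5 (2000 variable genes without the members, 30 components, 20 neighbours, Leiden resolution 1), and clusters were named where 3 markers were detected, another class or the cell cycle had no more of the top 10 genes than their own, and no mitochondrial gene led, which left 4 of 30 unnamed. Doublet calls, 2.96% to 7.36% of nuclei, were kept, and were left out in an alternative. Counts were summed per library and class and tested with edgeR 4.0.16 (quasi-likelihood test, TMM, Benjamini-Hochberg over all genes tested, threshold 0.05), with genotype as the term, or library as a block between classes. CPM is a sum over the plain library total.

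Replicate numbers did not pair the samples (correlations -0.058, 0.0048 and 0.013), and p-values measure the spread between these libraries. Alternatives were DESeq2 1.42.0, RLE factors, TMM library sizes for sums, batch as a covariate, a replicate block, no filter, a filter on mapped reads, pairs within clusters, marker gates, leaving out each replicate, and, chosen after seeing the data, plain totals, members without shared introns members with at least 10 transcripts in radial-glia-like nuclei and, for position, members with at least 20 transcripts. Tests were tried on simulated data. Named genes were the 5 C-type members, the 5 members with most transcripts in each other family, up to 3 members by p in each genotype comparison, the 3 largest called folds each way between classes, and up to 3 genes per list. Members and lists were chosen with earlier results of these data known. Gene identifiers of 58 members matched GENCODE vM39. No sequence is shown.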

Additional observations from a re-analysis of the deposited data

Results flagged for a closer look

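The summed gamma A and B members without shared introns differed by genotype in opposite directions in MGE-interneuron-like and excitatory-like nuclei. In MGE-interneuron-like nuclei they stood at 118.5 and 121.5 CPM in the Dnmt1 KO libraries and at 131.2 and 125.2 CPM in the controls, a log2 ratio of -0.10. In excitatory-like nuclei they stood at 128.4 and 132.6 CPM against 127.3 and 111.2 CPM, a log2 ratio of 0.13. The genotypes did not overlap in either class, which groups of 2 libraries can show without a genotype difference. The difference between the classes was not tested as a sum, and of the single genes 0 passed in the interaction (edgeR, adjusted p). Control replicate 2, the lowest of these libraries in excitatory-like nuclei, is the only one of batch 2. Without it the ratios were 0.035 in excitatory-like and -0.13 in MGE-interneuron-like nuclei. Over all 19 gamma A and B members, holders of shared introns included, the ratio in MGE-interneuron-like nuclei was -0.0056 (-0.022 to 0.011 leaving out each library), so the opposite direction rests on the members without shared introns.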

How the results depend on the processing

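Of 222 recomputed comparison values 201 stayed within the limits set and 21 moved. Many of them are counts of members called by genotype or in the interaction. These were 0 in the main fits, where 0% of all genes passed, so a count that stayed at 0 says little. Summed levels and pair ratios counted as within the limits if they moved by less than the SD between replicates. With no filter on low counts, 1 member (Pcdhb7) was called by genotype in MGE-interneuron-like nuclei and 1 in the interaction. No share of all genes under the same setting is set beside these counts or those that follow. With marker gates the members called were 4 in MGE-interneuron-like and 1 in upper-layer-like nuclei, and without members with shared introns 2 in Cajal-Retzius-like nuclei. Leaving out each replicate gave 4 to 7, 18 to 25 and 2 to 4 members in the MGE-interneuron-like, upper-layer-like and Cajal-Retzius-like comparisons. The replicate block called 0 members by genotype in all 7 populations, and with batch as a covariate the count was also 0. Batch 2 holds control replicate 2 alone, so the batch term takes that library out of the genotype estimate. Since 0% of all genes passed in the main fits, these counts cannot show that the result holds under pairing or batch.

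Some C-type log2 fold changes reversed. Pcdhgc5 was 0.028 in MGE-interneuron-like nuclei without doublet calls (-0.12 to 0.0085 leaving out replicates) and 0.13 in radial-glia-like nuclei with plain totals. Pcdhac1 was -0.015 in MGE-interneuron-like nuclei with no filter, 0.048 in Cajal-Retzius-like nuclei with plain totals (-0.42 to 0.027 leaving out replicates) and 0.27 in gated upper-layer-like nuclei. Pcdhac2 was -0.018 in gated Cajal-Retzius-like and 0.14 in gated upper-layer-like nuclei, and -0.034 to 0.18 in MGE-interneuron-like nuclei leaving out replicates. Summed log2 ratios by genotype, over all members with the holders of shared introns, ran from -0.40 to 0.15 for alpha and from 0.10 to 0.17 for gamma leaving out replicates. With the filter on mapped reads gamma was 0.088, and without shared introns the C-type sum was -0.21.

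Same-gene pair ratios without shared introns, in excitatory-like and MGE-interneuron-like nuclei, were 1.23 and 1.14 (alpha), 1.40 and 1.43 (gamma) and 1.24 and 1.14 (C-type). Over all members, the alpha ratio in excitatory-like nuclei was 0.99 and became 1.00 within clusters, and the gamma ratio in MGE-interneuron-like nuclei was 1.07 and became 1.11 without doublet calls. The cause of these shifts was not tested. In Sst+/Gad2+ nuclei depth limits the test to 7 members.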

Other observations

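Gm38666, a gene outside the choice of members that overlaps the arrays with 365.6 kb of shared intron, stood at 80.0, 88.5, 86.5 and 81.4 CPM over all retained nuclei. Its level was 37.2 ± 3.69 CPM (SD, n = 4) in radial-glia-like, 85.4 ± 3.46 CPM in excitatory-like and 120 ± 12.3 CPM in MGE-interneuron-like nuclei. In IPC-like nuclei it was 84.3 ± 7.17 CPM, close to the 82.4 ± 6.38 CPM of upper-layer-like nuclei, unlike the alpha sum, which was lower in IPC-like nuclei.

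The unnamed cluster 17, led by Lncpint and Snhg11, had the highest beta level of the clusters, 71.2 CPM for the 21 members without shared introns. It was 60.7 and 63.3 CPM in the Dnmt1 KO libraries and 78.5 CPM in control replicate 1. The cluster held 199, 106 and 359 nuclei of these libraries and 0 of control replicate 2, and its depth was 0.151 of that of its samples.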
